A study of Homo sapiens with 12 samples.

Results

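The response of SHI-1 cells to disulfiram given with copper (DSF) was measured by RNA-seq against the DMSO control, across all genes of the deposited tables. SHI-1 is an established MLL-AF6+ acute myeloid leukemia (AML) cell line, in which the N-terminal part of MLL (KMT2A) is fused to AF6 (AFDN, listed as MLLT4). The 6 libraries described, of 12 in the series, were chosen by their labels. Of these, 3 received DMSO and 3 received 0.3 µM disulfiram with 1 µM copper, all for 16 h from independent experiments. The labels give RPMI medium with serum, whereas the study's methods give Iscove's medium with serum for SHI-1 cells. The other groups were 5 µM niclosamide (NSM) and both drugs, and of these only the 3 NSM libraries were used, for a direct comparison of the single drugs. No group received copper alone, and the labels do not say whether the DMSO and NSM cells had added copper, so effects of disulfiram and of copper cannot be told apart here. All results are those of a single cell line at a single dose and time.

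Disulfiram is an inhibitor of aldehyde dehydrogenases used in alcohol dependence, and its breakdown product diethyldithiocarbamate binds copper in a complex that enters cells. Cells answer an excess of copper or zinc through the transcription factor MTF1, which binds metal response elements and switches on metallothioneins, small cysteine-rich proteins that bind metal ions. Misfolded protein activates HSF1 and the heat shock genes, oxidants and electrophiles release NRF2 (NFE2L2) from KEAP1, and phosphorylation of eIF2α raises translation of ATF4, the effector of the integrated stress response.

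Each table gives a normalized count for 14866 genes, a read count estimate rescaled by 1 factor per library. The estimated depth was 14.5 to 19.0 M reads in DMSO and 12.9 to 15.4 M in DSF libraries. Spearman's correlation between libraries, across genes, was 0.994 to 0.996 within DMSO, 0.992 to 0.995 within DSF and 0.952 to 0.972 between the groups. rRNA took 1.88% to 3.58% of the normalized counts in DMSO and 4.65% to 5.99% in DSF libraries, and its part in the results was not tested beyond leaving it out of the scaling. Of 12 myeloid leukemia markers, 11 were listed and their sum was 79440 to 89885 in DMSO and 59620 to 66158 in DSF libraries, mostly from the granule gene MPO described below. Markers of other cell types were lower, with sums of 28.7 to 36.6 and 34.9 to 49.5 for 5 B cell genes and 97.2 to 103 and 106 to 117 for the 3 T cell genes listed, in DMSO and DSF respectively. The sums of the few fibroblast, epithelial and erythroid markers listed were higher in every DSF than in every DMSO library, at 36.0 to 46.0 and 79.9 to 98.3 for 3 fibroblast genes, 5.46 to 19.5 and 23.3 to 33.7 for 2 epithelial genes, and 178 to 199 and 280 to 334 for the erythroid gene EPOR. Their part in the results was not tested.

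The limma model was fitted to log2(normalized count + 1) over every gene that reached 10 in 3 or more of the 6 libraries, and those with an adjusted p (Benjamini-Hochberg) under 0.05 were called. Of 12766 genes tested, 7150 were called (56.0%), 3845 of them higher in DSF (30.1%) and 3305 lower (25.9%). For DSF against DMSO, each count of list members below is to be read beside these shares. The changes were mostly small, with a median log2 fold change of 0.03 over all genes and quartiles of −0.30 and 0.37. A change of at least 1 on the log2 scale was called for 993 genes (7.78%), of which 755 were higher (5.91%) and 238 lower (1.86%). Larger changes were mostly rises. A rise of at least 2 was called for 209 genes (1.64%), of at least 3 for 74 (0.58%) and of at least 5 for 12 (0.094%). A fall of at least 2 was called for 5 genes (0.0392%) and of at least 3 for 2 (0.0157%). Rises made up 53.8% of all calls with the authors' scaling and 42.0% when every library was scaled to the same sum. With equal sums 7099 of 12799 genes were called, and the median over all genes was −0.06. Member counts given below for equal sums are to be read beside these values and not beside the shares above. In bulk RNA, fewer cells of a kind and less RNA per cell cannot be told apart.

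**Figure D1:**
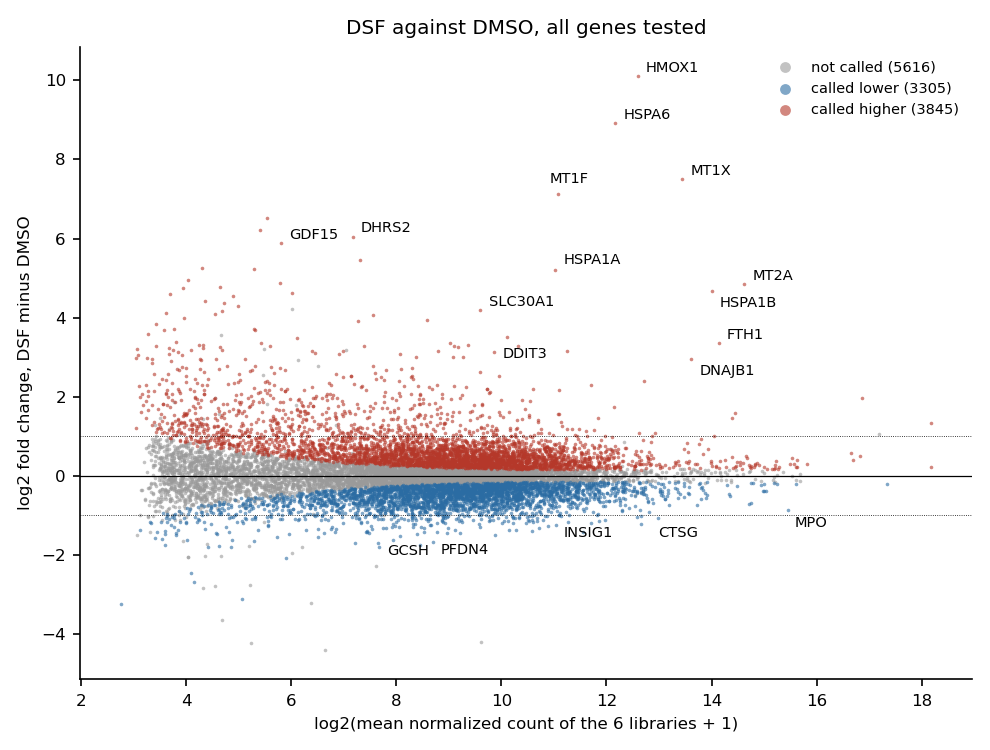
Log2 fold change (DSF minus DMSO) of the 12766 genes tested against the log2 mean normalized count of the 6 libraries; points are genes, red and blue are called higher and lower, and dotted lines mark a change of 1. The points furthest from 0 lie above the line, led by HMOX1 at 10.12, HSPA6 at 8.93 and MT1X at 7.51.

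The promoters of 4 of the most raised genes were chosen for display because they hold the sequence elements named above, which not every raised gene does. The 250 bases before the RefSeq start (GRCh38.p14) are printed 5′ to 3′ on the strand of the gene. For the metallothioneins MT1X (chr16:56682220-56682469, plus strand) and MT2A (chr16:56608334-56608583, plus strand), capitals mark the metal response element, searched as TGCACNC or TGCGCNC on both strands.
MT1X: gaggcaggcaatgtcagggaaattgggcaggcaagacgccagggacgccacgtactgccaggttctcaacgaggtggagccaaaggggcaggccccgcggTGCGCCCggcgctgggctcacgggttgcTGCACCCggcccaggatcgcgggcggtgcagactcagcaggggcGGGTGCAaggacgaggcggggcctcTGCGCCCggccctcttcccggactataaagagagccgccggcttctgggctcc
MT2A: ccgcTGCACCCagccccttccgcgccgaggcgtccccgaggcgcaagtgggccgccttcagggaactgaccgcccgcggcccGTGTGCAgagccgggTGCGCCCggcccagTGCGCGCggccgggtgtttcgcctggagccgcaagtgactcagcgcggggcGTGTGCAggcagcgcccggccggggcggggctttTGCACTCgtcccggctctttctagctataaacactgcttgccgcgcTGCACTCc
For the HSP70 genes HSPA6 (chr1:161524290-161524539, plus strand) and HSPA1B (chr6:31827488-31827737, plus strand), capitals mark the heat shock element, searched as GAANNTTC or TTCNNGAA on both strands.
HSPA6: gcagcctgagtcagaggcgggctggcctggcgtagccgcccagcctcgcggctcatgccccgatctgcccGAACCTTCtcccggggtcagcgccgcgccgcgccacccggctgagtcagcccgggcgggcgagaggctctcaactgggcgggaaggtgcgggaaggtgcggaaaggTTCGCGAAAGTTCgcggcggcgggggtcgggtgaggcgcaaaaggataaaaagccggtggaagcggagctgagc
HSPA1B: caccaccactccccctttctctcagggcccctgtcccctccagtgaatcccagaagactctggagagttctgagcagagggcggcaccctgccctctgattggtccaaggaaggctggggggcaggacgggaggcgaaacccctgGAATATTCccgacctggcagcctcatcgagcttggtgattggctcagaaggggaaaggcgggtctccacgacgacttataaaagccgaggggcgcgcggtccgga

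MT1X held 4 matches, which began 150, 122, 78 and 53 bases before the start, and MT2A held 7. At least 1 metal response element was found in 33.5% of the 9884 promoters matched to tested genes, at least 4 in 0.506% and at least 7 in 0.0304%. SLC30A1, the zinc exporter raised with them, held 1 match, 49 bases before the start. HSPA6 held 3 heat shock matches, of which those beginning 74 and 69 bases before the start overlap to form 3 alternating units, a pattern found in 0.273% of matched promoters. HSPA1B held 1 match, 105 bases before the start, and a heat shock element was present in 8.94% of matched promoters. The raised chaperone genes DNAJB1 (2.96) and BAG3 (2.53) held none in this window. Only a single start per gene was searched, and other starts were not. The DNAJB1 window (chr19:14529272-14529521, minus strand) lies inside the span of the gene, which ends at 14560391. HSPA8, a chaperone gene with a change of −0.18 that was named after its values were seen, held 4 heat shock matches. They form 2 patterns of 3 alternating units, beginning 230 and 55 bases before the start. Among matched members of the heat shock list, this pattern was found in 2 of 8 called higher by at least 1 and in 3 of the 26 others. The call of HSPA8 was lost without DMSO replicate 2 (adjusted p = 0.121 from limma) or DSF replicate 3 (adjusted p = 0.0942). Promoters were matched for 77.4% of the genes tested, so the shares do not cover all of them. Over the 546 matched genes that rose by at least 1, the metal response element was found in 30.6% and the heat shock element in 10.8%, shares close to those of all matched promoters. Among the 34 matched heat shock and chaperone genes 32.4% held the heat shock element, and of the 5 matched members of the metallothionein list 4 held the metal response element.

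The largest rise of all genes with a mean of at least 50 was that of HMOX1, the heme oxygenase that degrades heme to biliverdin and iron, on chromosome 22 from 35381096 to 35394207. Its normalized count was 9.72, 8.31 and 10.8 in the DMSO libraries and 12750, 16708 and 7614 in the DSF libraries. Every DSF library lay far above every DMSO library, with a log2 fold change of 10.12 (standard error 0.32, adjusted p = 7.75e-06 from limma). HSPA6, a strictly inducible HSP70, rose from 17.7, 20.4 and 11.8 to 10639, 12539 and 4433 (log2 fold change 8.93, adjusted p = 0.000193 from limma). GDF15, a secreted stress cytokine, was near 1 read in each DMSO library (0.884, 0.756 and 0.980) and at 105, 125 and 98.1 in DSF, so that the size of its rise of 5.88 rests on values close to the detection step. The same holds in part for DHRS2, a short-chain dehydrogenase, with 0.936, 3.20 and 8.31 in DMSO and 290, 331 and 226 in DSF. The transcriptional repressor HES1 had 2.65, 1.51 and 3.92 in DMSO and 110, 125 and 80.7 in DSF. TEX19 rose from 7.07, 5.29 and 4.90 to 344, 398 and 184. GDF15, DHRS2, HES1 and TEX19 were below 10 in every DMSO library and passed the filter only through the DSF group. HMOX1 reached 10 in DMSO replicate 3 alone (10.8), so it too passed only through the DSF group. The 12 were picked among genes whose groups did not overlap, as was the case for 62.5% of all genes tested. DSF replicate 2 was the highest DSF library in 12 of the 12, and DSF replicate 3 was the lowest in 9.

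**Figure D2:**
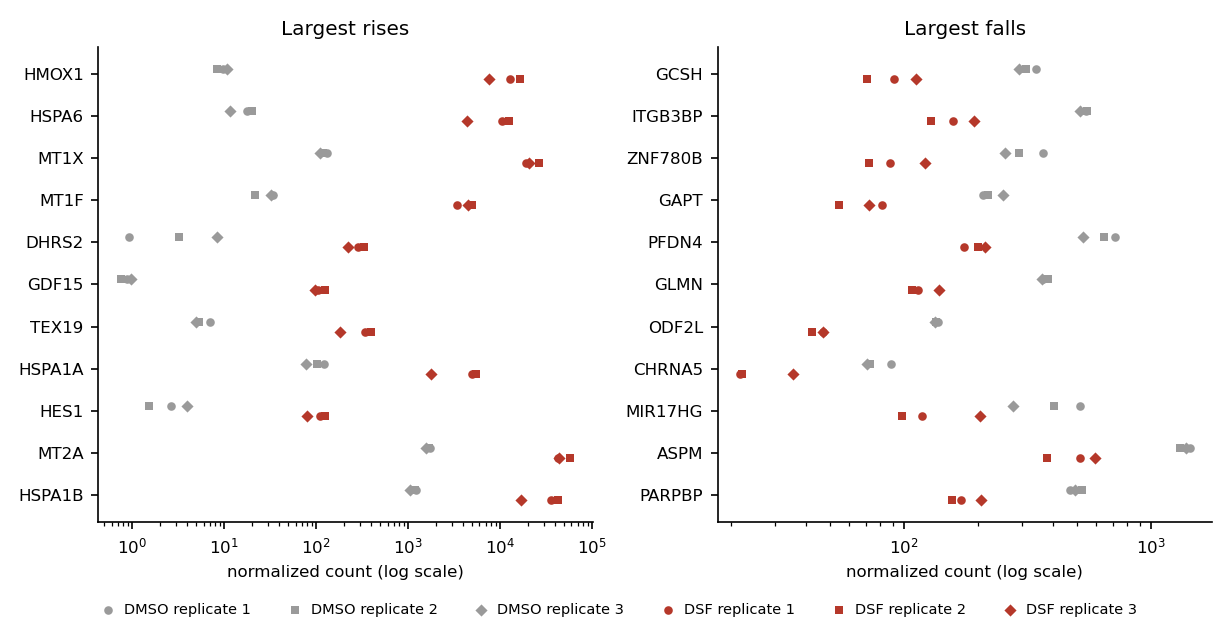
Normalized count by library (log scale) for 11 of the 12 largest rises (left) and 11 of the 12 largest falls (right) of called genes whose mean reached 50 and whose groups did not overlap; grey symbols are DMSO and red symbols DSF, with a shape for each replicate. HMOX1, HSPA6 and HSPA1B are lowest in DSF replicate 3, and the falls are smaller than the rises, between −1.80 and −1.49 on the log2 scale.

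Of the metallothionein and MTF1 list, 7 members could be tested and were called higher in DSF, but MT1B and MT1G passed the filter only through the DSF group. Of the 5 with at least 10 in every library, 5 were higher, with a median of 4.84 against 0.03 over all genes, 30.1% of which were called higher. MT1E and MT1H were under the filter. MT1X, on chromosome 16 from 56682470 to 56684196, had 131, 118 and 110 in DMSO and 19096, 26720 and 20782 in DSF. MT2A, in the same cluster from 56608584 to 56609497, had 1750, 1710 and 1576 in DMSO and 43364, 58169 and 43983 in DSF. The DSF libraries of both genes lay close together, and the changes were 7.51 (standard error 0.11) and 4.84 (standard error 0.10; adjusted p = 1.61e-11 and 1.49e-11 from limma). MT1F rose from 29.6 ± 6.72 to 4278 ± 779 (SD, n = 3; log2 fold change 7.14). MT1B and MT1G were listed at 0 in every DMSO library and reached 34.7, 37.8 and 20.7, and 16.2, 24.9 and 30.5, in DSF. No fold is given for either. MT1G was named after its values were seen, to account for every member. Members of the MT1 family are near-identical copies, so the division of reads among them is uncertain. SLC30A1, which moves zinc out of the cytosol, had 75.1, 79.3 and 79.4 in DMSO and 1388, 1897 and 1135 in DSF (4.19). MTF1 itself rose by 0.59, from 483, 530 and 499 to 790, 777 and 708.

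Of 15 tested genes that handle copper, 3 were higher, 4 lower and 8 not called, and none changed by 1 or more (median −0.09), beside 30.1% higher and 25.9% lower over all genes. SLC31A1, the copper importer CTR1, had 645 ± 22.8 in DMSO and 754 ± 28.0 in DSF (log2 fold change 0.22). With equal sums it was not called (0.13, adjusted p = 0.173 from limma), and neither were the other higher members. The call of SLC31A1 was also lost when DMSO replicate 1, DMSO replicate 2, DSF replicate 1 or DSF replicate 2 was left out (adjusted p = 0.0555 to 0.0654 from limma). The copper exporters ATP7A and ATP7B gave −0.10 and −0.43 (adjusted p = 0.689 and 0.183 from limma). STEAP3, a metalloreductase, and SCO1, which delivers copper to cytochrome oxidase, changed by −0.68 and −0.43.

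Copper is also known to bind lipoylated enzymes of the mitochondria after reduction by FDX1. Of 15 genes of lipoylation and its substrates, 8 were lower and 3 higher in DSF (median −0.29). GCSH, the lipoylated H protein of the glycine cleavage system, on chromosome 16 from 81081945 to 81096395, had 344, 313 and 292 in DMSO and 91.4, 70.6 and 112 in DSF. The DSF libraries were all under the lowest DMSO library, and the change of −1.80 (standard error 0.15, adjusted p = 5.83e-08 from limma) was among the 12 largest falls. LIAS, the lipoyl synthase, changed by −0.46 and FDX1 by −0.33. DLST, a subunit of the oxoglutarate dehydrogenase complex, rose by 0.34. When each library's smooth trend with the GC content of transcripts was removed, 3 members were called lower, and FDX1 (−0.11, adjusted p = 0.31 from limma) and LIAS (−0.35, adjusted p = 0.07) were not among them. LIAS was also not called without DMSO replicate 1 (adjusted p = 0.0683 from limma) or DSF replicate 1 (adjusted p = 0.0826).

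Cytosolic chaperones moved in both directions. Of 40 members tested, 16 were higher, 13 lower and 11 not called, beside 30.1% higher and 25.9% lower over all genes. A rise of at least 1 was called for 9 members and a fall of that size for none (median 0.04). With at least 10 in every library, 15 of 39 were higher and 13 lower (median 0.03). HSPA1A and HSPA1B, the inducible HSP70 genes next to each other on chromosome 6, rose by 5.19 and 4.68. HSPA1B had 1219, 1201 and 1040 in DMSO and 35831, 42318 and 16974 in DSF. HSPA1A had 121, 104 and 77.4 in DMSO and 4939, 5500 and 1801 in DSF, and because the pair encodes nearly the same transcript the division of reads between them is uncertain. The HSP40 gene DNAJB1 rose from 2734 ± 135 to 22366 ± 8180 (2.96). BAG3, an HSP70 co-chaperone of selective autophagy, rose from 281 ± 24.1 to 1703 ± 612 (2.53). CRYAB, a small heat shock protein, passed the filter only through the DSF group, at 0 in every DMSO library and 105, 112 and 32.7 in DSF. In each of these genes DSF replicate 3 was the lowest DSF library, at less than the mean of the group, and still above every DMSO library.

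Other members of the list included genes that were not called or were lower. HSP90AA1 had 47731, 49362 and 45766 in DMSO and 50674, 51963 and 39553 in DSF, overlapping groups with a change of −0.02 (95% interval −0.21 to 0.17, adjusted p = 0.884 from limma).  The HSP90 co-chaperone PTGES3 (p23) changed by −0.99, from 4836 ± 471 to 2438 ± 182, and HSPA4L, an HSP110 relative, by −0.93. HSPH1, the HSP110 gene, had 4286, 4725 and 4718 in DMSO and 6592, 6128 and 3843 in DSF. DSF replicate 3 was below all DMSO libraries and the other DSF libraries above them, so the gene was not called (0.23, adjusted p = 0.453 from limma). Without DSF replicate 3 it was (0.48, adjusted p = 7.56e-06). HSF1 rose by 0.35, a call lost when the GC trend was removed (0.05, adjusted p = 0.567 from limma).

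Of 14 subunits of the chaperonin TRiC and of prefoldin, which fold actin and tubulin, 10 were lower and 1 higher (median −0.40), against 25.9% and 30.1% of all genes tested. PFDN4 had 718, 644 and 531 in DMSO and 175, 200 and 214 in DSF (−1.67, adjusted p = 6.51e-09 from limma), and CCT6A changed by −0.82, whereas PFDN5 rose by 0.38. Of 17 mitochondrial chaperones and proteases, 5 were lower and 2 higher (median −0.14), a share of lower genes near the 25.9% of all genes. HSPE1 and HSPD1, the HSP10 and HSP60 pair that share a promoter region, changed by −0.97 and −0.74. The matrix disaggregase CLPB rose by 0.75. With equal sums, 9 members of this list were lower.

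NRF2 targets were mostly higher, with 26 of 34 called higher, 1 lower and 7 not called, and 11 rose by at least 1 (median 0.53). Over all genes tested, 30.1% were higher and 25.9% lower. HMOX1 and ABCC3, among the higher members, passed the filter only through the DSF group. FTH1, the ferritin heavy chain, had 3356, 3068 and 3140 in DMSO and 34022, 38706 and 25662 in DSF (3.34, adjusted p = 4.07e-07 from limma). SQSTM1 (p62), the cargo receptor that also binds KEAP1, rose from 2114 ± 35.5 to 11286 ± 2856 (2.38). AKR1C1, an aldo-keto reductase, rose from 83.1 ± 14.9 to 444 ± 83.6 (2.41). NQO1, a quinone reductase, rose from 232 ± 31.0 to 445 ± 23.5 (0.94) and the cystine transporter SLC7A11 from 846 ± 28.7 to 1238 ± 76.4 (0.55). GCLM, the modifier subunit of glutamate-cysteine ligase, had 364, 334 and 376 in DMSO and 410, 479 and 381 in DSF (0.24, 95% interval 0.02 to 0.45, adjusted p = 0.0564 from limma). It was called with the GC trend removed (0.63, adjusted p = 0.000145 from limma) and without DSF replicate 3 (0.31, adjusted p = 0.0144). The single member called lower was the thioredoxin gene TXN, at −0.64, a call lost when the GC trend was removed (−0.22, adjusted p = 0.0751 from limma). NFE2L2 rose by 0.35 and KEAP1 by 0.29. The value for KEAP1 was −0.027 with the GC trend removed.

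Among 18 genes of heme and iron handling, 7 were higher and 5 lower, and 4 rose by at least 1 (median 0.01), with shares of higher and lower genes near the 30.1% and 25.9% of all genes tested. These were HMOX1, FTH1, FTL and BLVRB, of which HMOX1 passed the filter only through the DSF group. The light ferritin chain FTL, already abundant in DMSO, rose from 48495 ± 2161 to 189150 ± 31232 (1.95), and the biliverdin reductase BLVRB from 178 ± 8.88 to 506 ± 89.0 (1.49). The transferrin receptor TFRC changed by −0.56 and the heme exporter FLVCR1 by −0.79.

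Of 38 genes of the integrated stress response, 29 were higher, 5 lower and 4 not called, and 13 rose by at least 1 (median 0.63). The shares of all genes were 30.1% higher and 25.9% lower. GDF15, among the higher members, passed the filter only through the DSF group. ATF4 had 9707, 8833 and 8049 in DMSO and 12902, 15226 and 14060 in DSF (0.67). Its target DDIT3 (CHOP), a transcription factor linked to cell death, had 244, 193 and 139 in DMSO and 1509, 2074 and 1439 in DSF (3.14, adjusted p = 0.000243 from limma). PPP1R15A (GADD34), which directs the dephosphorylation of eIF2α, rose from 488 ± 11.2 to 4377 ± 902 (3.14), and ATF3 from 46.2 ± 4.53 to 329 ± 88.3 (2.77). Lower were SLC38A2 (−0.70), a neutral amino acid transporter, and EIF2S1 (−0.56), which encodes eIF2α itself. Of 27 genes of endoplasmic reticulum chaperones and the unfolded protein response, 12 were higher and 7 lower (median 0.03), the latter near the 25.9% of all genes. DNAJB9, an HSP40 of this compartment, rose from 92.1 ± 8.69 to 256 ± 12.8 (1.47), and the sensor gene ERN1 (IRE1α) from 64.5 ± 2.92 to 188 ± 30.6 (1.52). HSPA5 (BiP) rose by 0.68, and HSP90B1 (GRP94) changed by −0.48.

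The copper complex of disulfiram is known to aggregate NPL4 (NPLOC4), an adaptor of the segregase p97 (VCP) that passes ubiquitylated proteins to the proteasome. Of 29 genes of ubiquitin and this machinery, 12 were higher, 5 lower and 12 not called (median 0.02). Over all genes tested, 30.1% were higher and 25.9% lower. ZFAND2A (AIRAP), an arsenite-inducible proteasome-associated protein, had 129, 111 and 107 in DMSO and 1085, 1200 and 619 in DSF (3.00). The polyubiquitin gene UBB rose by 1.85. NPLOC4 rose by 0.31 and its partner UFD1L by 0.45, whereas VCP gave −0.01 (95% interval −0.15 to 0.13, adjusted p = 0.907 from limma). With the GC trend removed, the rise of NPLOC4 was not called (0.08, adjusted p = 0.404 from limma) and VCP was called lower (−0.16, adjusted p = 0.0414). Proteasome genes did not rise together: of 48, 13 were higher, 23 lower and 12 not called (median −0.16). PSMD12 (−0.95) and PSMA3 (−0.92) were among the lower members, and ADRM1 (0.72) and NFE2L1 (0.74), a transcription factor of the proteasome genes, among the higher ones.

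Of 40 genes of lysosomes and autophagy, 26 were higher, 3 lower and 8 raised by at least 1 (median 0.39). Over all genes, 30.1% were higher and 25.9% lower. OPTN, among the higher members, was below 10 in every DMSO library and passed the filter only through the DSF group. WIPI1, which acts in autophagosome formation, rose from 105 ± 13.9 to 347 ± 39.4 (1.72), and the ATG8 homologue GABARAPL1 from 250 ± 10.6 to 744 ± 148 (1.55). ATG5 was lower, at −0.63.

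Of 26 AP-1 and immediate early genes, 23 were higher, none lower and 19 rose by at least 1 (median 1.57). With at least 10 in every library, 20 of 23 were higher (median 1.38). IER3, below 10 in every DMSO library, had 4.76 ± 1.62 in DMSO and 72.7 ± 19.8 in DSF. IER5, an HSF1 target and regulator, rose from 167 ± 17.5 to 2051 ± 849 (3.51). JUN had 198, 204 and 225 in DMSO and 1471, 1568 and 938 in DSF (2.63). Of 23 genes of the NF-kB system, 21 were higher, none lower and 13 rose by at least 1 (median 1.36). NFKBIZ, among the higher members, was below 10 in every DMSO library and passed the filter only through the DSF group. The chemokine genes CCL3 and CCL4 rose by 3.95 and 3.91, with near-identical copies in the genome, and IL8 (CXCL8) rose from 228 ± 8.55 to 2310 ± 684 (3.29). ICAM1, an adhesion receptor for leukocytes, had 94.6, 99.7 and 101 in DMSO and 1061, 1239 and 690 in DSF (3.29). NFKBIA, the inhibitor IκBα, had 618, 529 and 505 in DMSO and 2764, 2943 and 1947 in DSF (2.19). The subunit gene REL gave −0.14 and was not called (adjusted p = 0.604 from limma).

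**Figure D3:**
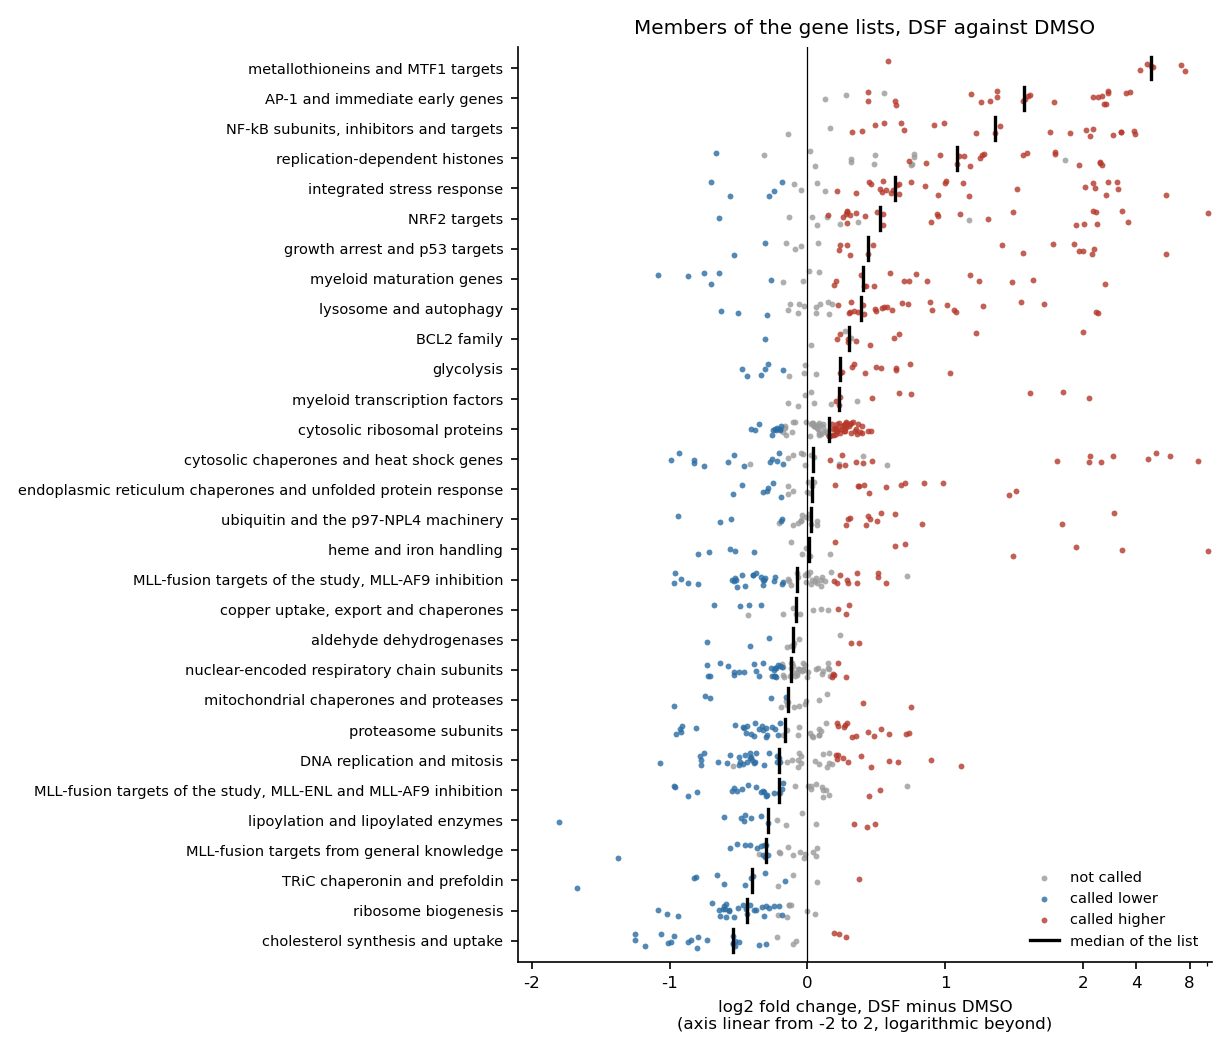
Log2 fold change (DSF minus DMSO) of every tested member of 30 gene lists, ordered by the list median (black bar); red and blue points are called higher and lower, grey points are not called, and the axis is linear from −2 to 2 and logarithmic beyond. The medians run from 4.84 for metallothioneins to −0.54 for cholesterol synthesis, and the heat shock list has a median near 0 with members beyond 4.

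Of 21 growth arrest genes and p53 targets, 15 were higher and 2 lower, and 9 rose by at least 1 (median 0.44). The shares of all genes were 30.1% higher and 25.9% lower. GDF15, also in this list, passed the filter only through the DSF group. CDKN1A (p21), the inhibitor of cyclin-dependent kinases, had 154, 136 and 152 in DMSO and 663, 654 and 420 in DSF (1.94, adjusted p = 1.81e-07 from limma). The death receptor gene TNFRSF10B (DR5) rose from 96.5 ± 12.6 to 469 ± 75.2 (2.27). MDM2, itself a p53 target, was lower, at −0.53. Of 14 BCL2 family genes, 10 were higher and BCL2 was lower, at −0.31, a call lost without DMSO replicate 2 (adjusted p = 0.078 from limma). With equal sums 5 members were higher. BBC3 (PUMA) had 127, 89.4 and 102 in DMSO and 461, 464 and 359 in DSF (2.01), and BMF rose by 1.23. Both encode BH3-only proteins that promote apoptosis.

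Of 53 genes of DNA replication and mitosis, 27 were lower, 11 higher and 15 not called (median −0.20), with sizes mostly under 1. The shares of all genes were 25.9% lower and 30.1% higher. CENPE, a kinetochore motor, changed from 1658 ± 101 to 793 ± 105 (−1.07). The sliding clamp gene PCNA had 5104, 5195 and 5025 in DMSO and 2899, 2690 and 3366 in DSF (−0.78). The proliferation marker MKI67 had 9492, 10629 and 11902 in DMSO and 11699, 12044 and 12360 in DSF, overlapping groups that were not called (0.18, adjusted p = 0.054 from limma). Without DMSO replicate 3 it was called higher (0.26, adjusted p = 0.00537 from limma). Members called higher included CDT1, a licensing factor (0.90), and the transcription factor gene E2F2 (1.12). Of 31 replication-dependent histone genes tested, 18 were higher and 1 lower, and 15 rose by at least 1 (median 1.09). Many of them passed the filter only through the DSF group, and of the 14 with at least 10 in every library 8 were higher and 1 lower (median 0.80). HIST1H2BK rose from 239 ± 14.2 to 940 ± 85.7 (1.97). HIST1H2BJ had 8.50 ± 2.91 and 53.5 ± 2.15. Most histone mRNAs lack the poly(A) tail by which these libraries were selected, only 2 of the members had a DMSO mean above 100, and 15 further members were under the filter. Several histone genes are near-identical copies. HIST2H2AA3 and HIST2H2AA4 had the same values in all 6 libraries, as did HIST2H3A and HIST2H3C, and each of these is counted as a separate higher member. Leaving out DSF replicate 1 or 2 left 11 higher members.

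Ribosome biogenesis genes were lower or not called, with 28 of 35 lower and none higher (median −0.44). WDR75 changed from 1753 ± 48.8 to 831 ± 95.2 (−1.08) and NOP58, a core protein of box C/D ribonucleoproteins, by −0.94. NPM1, the nucleolar chaperone nucleophosmin, had 34284, 34676 and 33235 in DMSO and 20264, 19362 and 23827 in DSF (−0.69), without overlap. The genes for cytosolic ribosomal proteins moved in small steps, with 40 of 81 higher, 11 lower, and no change of 1 or more (median 0.16). RPL10 rose by 0.46. These counts turned on the processing, with 22 higher and 18 lower under equal sums and 18 and 5 with the GC trend removed.

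Sterol synthesis was the list with the lowest median. Of 26 genes, 20 were lower, 3 higher and 3 not called, and 5 fell by at least 1 (median −0.54). INSIG1, the sterol-sensing retention factor, had 2992, 2881 and 2987 in DMSO and 1275, 1176 and 1276 in DSF (−1.25, adjusted p = 3.33e-10 from limma). IDI1 changed from 564 ± 28.5 to 239 ± 46.0 (−1.25) and CYP51A1 from 2158 ± 128 to 955 ± 97.4 (−1.18). HMGCS1, at the entry of the pathway, had 1315, 1391 and 1411 in DMSO and 734, 686 and 686 in DSF (−0.97). The 3 higher members were the regulators SREBF1 (0.19), SREBF2 (0.28) and SCAP (0.23), none of them called with equal sums (adjusted p = 0.323, 0.0923 and 0.165 from limma). SREBF1 was also not called without DMSO replicate 2, DSF replicate 1 or DSF replicate 2, SREBF2 without DMSO replicate 1, DMSO replicate 2 or DSF replicate 2, and SCAP without DMSO replicate 1, DMSO replicate 2 or DSF replicate 1 (adjusted p = 0.0501 to 0.271 from limma). With the GC trend removed, 22 members were lower and none higher.

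Energy metabolism showed smaller changes. Of 21 glycolysis genes, 11 were higher and 6 lower (median 0.23), with the glucose transporter SLC2A3 at 1.03 and lactate dehydrogenase LDHA at −0.47. With the GC trend removed, 7 were higher and 8 lower. Of 60 nuclear-encoded respiratory chain subunits, 24 were lower, 5 higher and 31 not called, and none changed by 1 (median −0.12). NDUFB1 changed from 1264 ± 176 to 759 ± 66.4 (−0.73). With equal sums 38 of them were lower. Of 11 aldehyde dehydrogenases, the enzymes that disulfiram inhibits, 3 were lower and 2 higher, beside 25.9% lower and 30.1% higher over all genes. ALDH1B1 changed from 806 ± 32.1 to 486 ± 51.0 (−0.73), and ALDH2, which was low in these cells, gave −0.11 (adjusted p = 0.74 from limma).

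Myeloid maturation genes moved in both directions. Of 26, 16 were higher and 6 lower (median 0.40), against 30.1% and 25.9% of all genes tested. CD14, the monocyte receptor for lipopolysaccharide, had 64.8, 54.0 and 60.1 in DMSO and 431, 415 and 321 in DSF (2.68, adjusted p = 3.33e-10 from limma). ITGAM (CD11b) rose from 550 ± 33.8 to 1549 ± 240 (1.48). Genes of azurophil granules, which mark promyelocytes, were among the lower members. MPO, myeloperoxidase, had 54162, 57371 and 62640 in DMSO and 29730, 29316 and 36629 in DSF (−0.87), and the protease CTSG had 10940, 11348 and 10736 in DMSO and 4834, 4975 and 5855 in DSF (−1.08). In neither did the groups overlap. The surface receptor gene CD36, also of this list, was lower as well (−0.75, adjusted p = 1.64e-06 from limma). Of 16 myeloid transcription factors tested, 9 were higher and none lower, with BCL6, a transcriptional repressor, at 1.86. KLF4, among the higher members, was below 10 in every DMSO library and passed the filter only through the DSF group. The abundant lineage factor CEBPA gave 0.02 (adjusted p = 0.769 from limma), and −0.26 with the GC trend removed (adjusted p = 0.00182). With equal sums 4 were higher and 2 lower.

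MLL-fusion targets were lower in part, by small amounts. Of 23 targets known in general, 12 were lower, none higher and 11 not called (median −0.30). With the GC trend removed, 3 were higher and 10 lower. HOXA10 had 1017, 1019 and 962 in DMSO and 687, 759 and 807 in DSF (−0.41, adjusted p = 0.00023 from limma). HOXA7 had 230, 244 and 229 in DMSO and 179, 165 and 204 in DSF (−0.36, adjusted p = 0.0137), a call lost without DMSO replicate 2 (adjusted p = 0.0646) and without DSF replicate 2 (adjusted p = 0.0608). HOXA9 had 612, 659 and 629 in DMSO and 650, 717 and 622 in DSF, overlapping groups with no call (0.06, 95% interval −0.11 to 0.24, adjusted p = 0.531 from limma). GFI1 gave −0.02 (adjusted p = 0.796 from limma). MEIS1 changed by −0.28, a call lost with the GC trend removed (−0.12, adjusted p = 0.159 from limma). MYC changed from 6987 ± 307 to 4904 ± 389 (−0.51). KMT2A itself rose from 1254 ± 77.6 to 1599 ± 28.5 (0.35), and reads of the fusion and of the normal allele are not separated in these tables. Of the 55 tested members of the larger set of the study, 24 were lower and 10 higher (median −0.08), and of the 33 of the smaller set 19 were lower and 2 higher (median −0.21). SLC16A1, the lactate transporter MCT1 and a member of both, changed from 1736 ± 70.6 to 892 ± 79.0 (−0.96). These shares of lower genes stand against 25.9% of all genes tested.

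The 12 largest falls held few genes of the lists. Beside GCSH and PFDN4 they included ITGB3BP, a centromere protein with 545, 550 and 517 in DMSO and 159, 129 and 192 in DSF (−1.76). ASPM, an organizer of spindle poles, had 1435, 1308 and 1389 in DMSO and 515, 379 and 595 in DSF (−1.49). GAPT, an adaptor of immune cells, had 226 ± 22.0 and 69.3 ± 13.7 (−1.71). MIR17HG, the host transcript of a cluster of microRNAs, had 518, 405 and 276 in DMSO and 119, 98.1 and 203 in DSF (−1.53, adjusted p = 0.0223 from limma), and its call was lost without DMSO replicate 2 (adjusted p = 0.0776), DSF replicate 1 (0.0774) or DSF replicate 2 (0.0638). In 10 of the 12 falls DSF replicate 2 was the lowest DSF library and in 10 DSF replicate 3 the highest. Among the 5 genes lower by at least 2 were TRNA, FAM35DP, GOLGA8S and RP4-669L17.10, all with a mean under 50 and chosen for naming after their values were seen. TRNA, which may stand for more than a single locus, had 85.7, 43.1 and 49.0 in DMSO and 4.63, 6.97 and 5.45 in DSF.

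The direction of change followed the GC content of the transcript. Among the 11189 genes tested with a canonical transcript in GENCODE 44 (87.6%), the median GC content was 48.6% for all, 55.1% for genes higher by at least 1 and 38.5% for genes lower by at least 1. Median transcript length was 3266, 3072 and 3080 bases. Spearman's correlation of the change, taken over genes (which do not replicate each other), was 0.49 with GC content and 0.0052 with length. When these genes were cut into 10 groups of about equal size by GC content, in the lowest group (30.7% to 38.3%) the median change was −0.41, with 61.3% of genes called lower and 6.79% higher. In the highest group (61.8% to 76.0%) the median was 0.29, with 5.72% lower and 50.2% higher. Between replicates, the median difference of a library from the other 2 was at most 0.0832 in size in any of the 10, so that the trend between groups was larger than that between replicates. Removing a smooth GC trend from each library, an alternative chosen after seeing the data, gave 5768 of 11189 genes called, 668 of them with a change of at least 1. Of the 5768, 4334 were shared with the 7150 above, which is 60.6% of the latter and 75.1% of the former. Genes without a GC value were not in that fit, so those among the 7150 count as not shared. The part of GC content in any single change was not tested.

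**Figure D4:**
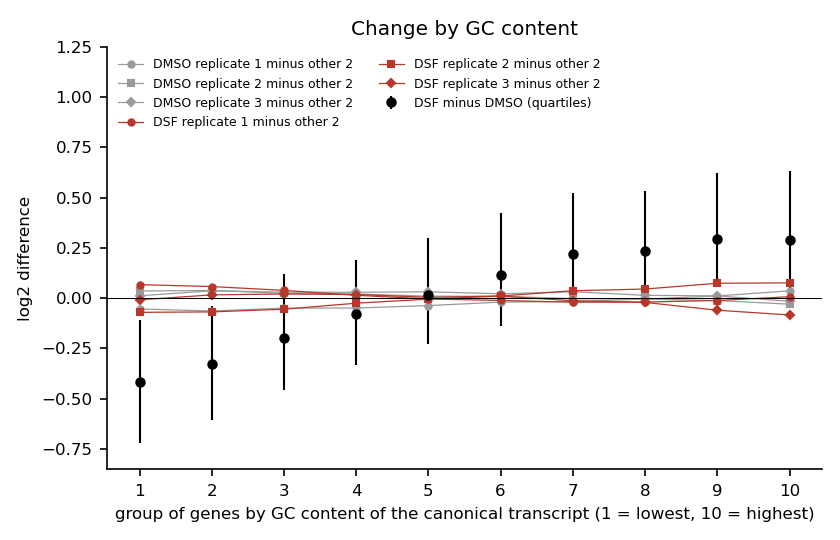
Log2 difference in 10 groups of genes ordered by GC content of the canonical transcript: black points and bars are the median and quartiles over genes of DSF minus DMSO, and coloured lines are the median of each library minus the other 2 of its group. The black points climb from −0.41 to 0.29 while no library line departs from 0 by more than 0.0832.

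Set directly against NSM, an antihelminthic and the other single drug of the series, DSF differed in 3886 of 12777 genes (30.4%), 2115 higher (16.6%) and 1771 lower (13.9%). This comparison shares the DSF libraries with the one above. NSM replicate 2 held the B-lineage gene PAX5 at 161 and the growth factor receptor gene FLT3 at 164, against at most 6.23 and 14.7 in DMSO, and 2617 genes were called without it. Without NSM replicate 3, 7750 were called, and without DSF replicate 1, 2 or 3, 1032, 1099 and 1142. With equal sums the share of higher calls went from 54.4% to 71.0%, and the median of all genes from 0.02 to 0.19.

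HSPA1B had 428, 362 and 303 in NSM, below DMSO, and was higher in DSF by 6.35 (adjusted p = 0.000347 from limma). HSPA6 had 6.87, 4.84 and 5.11 in NSM, so it passed the filter only through the DSF group, and differed by 10.32. HMOX1 had 18.7, 11.6 and 11.5 in NSM and differed by 9.65 (adjusted p = 7.48e-05 from limma). MT2A had 2362, 1953 and 1694 in NSM and differed by 4.60, with 6 of 7 members of its list higher in DSF. MT1B, which is among the higher members, was at 0 in every NSM library and passed the filter only through the DSF group. NQO1 had 100, 115 and 91.5 in NSM, and DSF exceeded it by 2.12.

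FTH1 had 37344, 30462 and 33879 in NSM, which overlapped the DSF libraries (−0.06, 95% interval −0.49 to 0.36, adjusted p = 0.808 from limma), and GDF15 also overlapped (0.14, adjusted p = 0.7). DDIT3 had 6192, 5479 and 4723 in NSM and was lower in DSF (−1.72). Of 38 integrated stress response genes, 17 were lower and 1 higher in DSF than in NSM (median −0.61), beside 13.9% lower over all genes. Of these genes 29 were lower without NSM replicate 3, and 9 and 10 without DSF replicate 1 or 3. Calls over all genes also moved, to 7750 of 12642 without NSM replicate 3. They were 1032 of 12416 without DSF replicate 1 and 1142 of 12442 without DSF replicate 3. Of the sterol genes, 17 of 26 were lower in DSF and none higher (median −1.27). INSIG1 had 4787, 4724 and 6789 in NSM (−2.11, adjusted p = 0.0011 from limma). Replication genes were higher in DSF, with 28 of 53 higher and 1 lower (median 0.73), and PCNA had 663, 846 and 794 in NSM (1.96). MYC had 2544, 2775 and 2294 in NSM, lower than in DSF, which exceeded it by 0.95. HOXA9 had 1673, 1682 and 4039 in NSM and was lower in DSF (−1.76, adjusted p = 0.0114 from limma), a call lost without DSF replicate 1, 2 or 3 (adjusted p = 0.0572, 0.0517 and 0.0594).

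**Figure D5:**
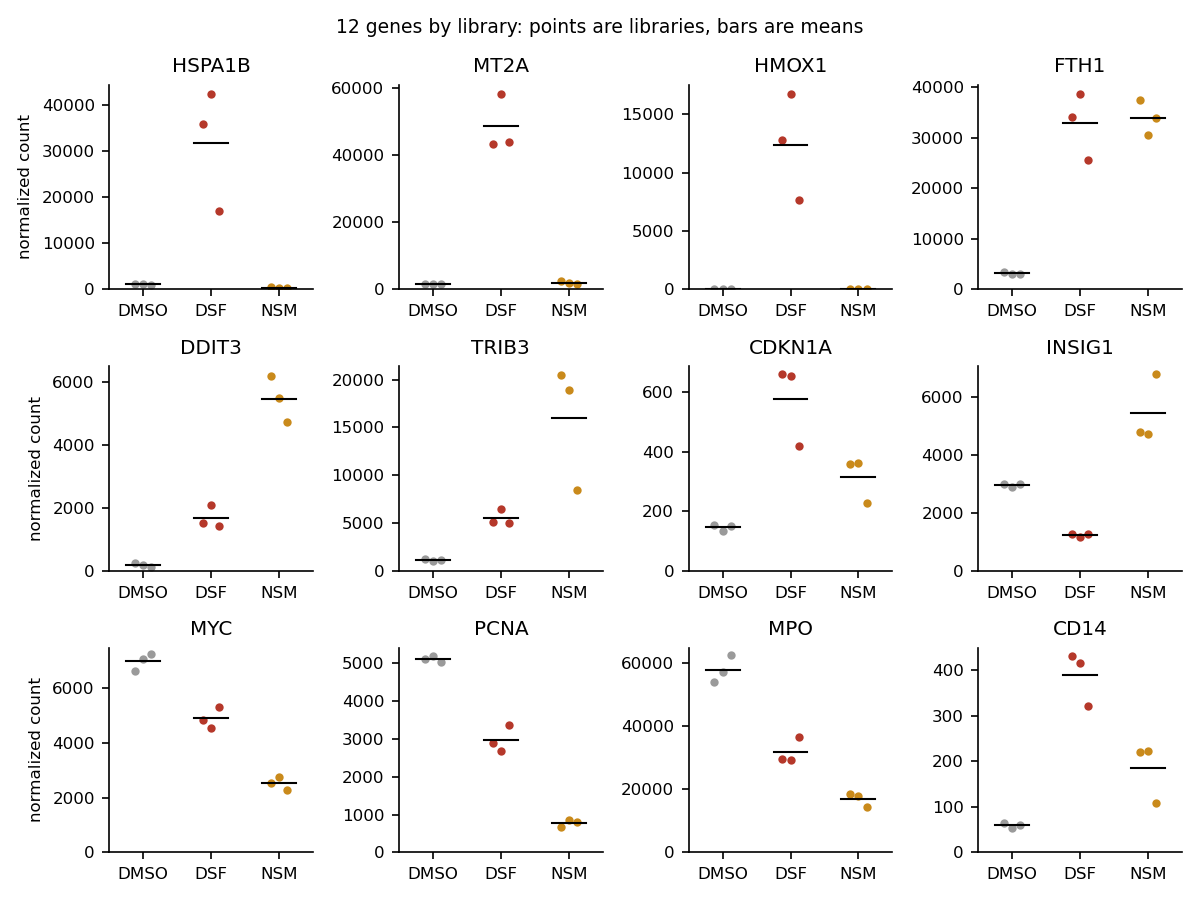
Normalized count (linear axis from 0) of 12 genes in the DMSO, DSF and NSM groups; points are libraries and bars are means of 3. HSPA1B, MT2A and HMOX1 are high in DSF alone, FTH1 is high in both drugs, DDIT3 and TRIB3 are highest in NSM, and INSIG1 is lowest in DSF.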

How the data were processed

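RNA was extracted from SHI-1 cells of 3 independent experiments per group, poly(A)-selected and sequenced. The authors deposited 1 table per library with normalized counts (a signal that is not whole and not a raw read count). The submitters' processing notes name bcl2fastq 2.19, Trimmomatic, Bowtie2, Picard, featureCounts, DESeq2 and hg38, whereas the study's methods describe STAR and Salmon, so the counting is uncertain. Raw reads could not be recovered. Depth is an estimate that takes the smallest recurring value of a library as 1 read, which covers counting error only. Most values were not whole multiples of it.

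Samples were grouped by their labels. Values were transformed to log2(value + 1), so fold changes of low genes are understated, and genes of at least 10 in at least 3 of the 6 libraries were fitted with limma 3.58.1 (trend, robust empirical Bayes) in R 4.3.3. P-values were adjusted by Benjamini-Hochberg over all genes tested, with calls under 0.05, and all tests were two-sided. DSF was fitted against DMSO and, separately, against NSM. Tables and plots were made with Python 3.11.15, pandas 2.3.3, numpy 2.4.6 and matplotlib 3.10.9. In a test on simulated data for DSF against DMSO with 12437 genes, 200 genes were changed. Of these, 66.0% of log2 changes of 0.5 and 88.0% of changes of 1 were recovered, and 5.46% of all calls were false. In the real data 56.0% of genes were called, a far larger share, so these rates cannot be carried over to the comparison itself.

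The comparison, the members and the gene lists were chosen with earlier results of these data known. The text names the 12 largest rises and falls (mean of at least 50, no overlap), up to 4 called members per list and direction in either comparison, a fixed list of genes, and members not called. Alternatives were other pseudocounts, filters and scalings, all 12 libraries in 1 fit, a replicate block, library weights, a non-robust fit and leaving out each library. Removal of the GC trend was added after seeing the data. The tables of both drugs together were used only for the marker values and for the fit of all 12 libraries. Some genes that met these rules are not reported here.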

Additional observations from a re-analysis of the deposited data

Results flagged for a closer look

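Outside the comparisons, DSF+NSM replicate 1, a library of both drugs together, held genes of the B lineage and FLT3 above their level in the control. PAX5 was at 471, EBF1 at 83.3 and FLT3 at 530, whereas the highest DMSO values were 6.23, 1.82 and 14.7. This library entered none of the values above apart from the fit of all 12 libraries, and the source of the signal was not tested.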

How the results depend on the processing

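The count of genes that differed between DSF and DMSO stayed within 1.5 times of 7150 under all alternatives but 1. With all 12 libraries in 1 fit, which then share an estimate of the spread, 2328 were called. In that fit 31 of the 138 named genes fitted lost their call, HOXA10, HOXA7, MEIS1, MYC and KMT2A among them. Leaving out 1 library gave 6044 to 7125 genes, and 710 to 1047 with a change of at least 1. The 993 genes called with a change of at least 1 became 702 with at least 10 in every library. That filter left 11869 genes, so genes with a library under 10 were not tested in that fit. With a pseudocount of 10 the 993 became 725. For DSF against NSM the count was 5858 with all 12 libraries, 9870 with library weights and 1032 to 7750 with 1 library left out. The cause was not tested. With the GC trend removed, 4 of the named genes turned direction: CEBPA (−0.26), KEAP1 (−0.027), SCAP (−0.093) and SREBF1 (−0.12). Replicate numbers were shared by the groups, but deviations of same-numbered libraries correlated at only 0.07, 0.07 and 0.03, although every library correlated best with its own number. A replicate block gave 6866 genes, 995 with a change of at least 1, and 3377 for DSF against NSM. Depth is known only as an estimate, and genes under the filter were not tested.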
